A study of Homo sapiens with 24 samples.

Results

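The MYC family and its partners were examined as 9 genes, chosen by name: the transcription factors MYC, MYCN and MYCL, their partner MAX, the MAX-binding antagonists MXD1, MXD3, MXD4 and MNT, and LIN28B, an RNA-binding protein that acts on the same growth programme. They were matched by Ensembl gene ID, and all 9 were found once in each count table, of 57356 genes shared by the 3 tables. Poly(A) RNA-seq had been performed on SK-N-SH cells and on SK-N-AS cells, both established from human neuroblastoma, after the gene FAM167A, which the labels call DIORA1, was lowered. SK-N-SH cells received a pool of siRNAs against DIORA1 (5 libraries) or NTC siRNA, a non-targeting control (5 libraries). In separate experiments, SK-N-SH cells (3 libraries) and SK-N-AS cells (4 libraries) carried CRISPR interference, a KRAB repressor fused to SpCas9 and guided by sgDIORA1, against cells of the same line with the non-targeting guide sgGal4 (3 and 4 libraries). Both CRISPRi groups of a line therefore carry the repressor. The labels give neither a time point, nor a clone, nor whether replicates came from separate cultures, so every p-value measures the spread between these libraries, which may be technical.

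MYC proteins bind DNA as dimers with MAX at a short motif called the E-box and raise the transcription of genes for ribosome synthesis, metabolism and cell division. MXD proteins and MNT take the same partner and the same motif but recruit the SIN3 and histone deacetylase corepressors, so the balance between the groups sets how strongly E-box genes are transcribed. In neuroblastoma, amplification of MYCN marks aggressive tumours, while tumours without it may depend on MYC instead. Neither SK-N-SH nor SK-N-AS carries amplified MYCN. LIN28B blocks the maturation of let-7 microRNAs, which restrain MYCN and other growth genes, and high LIN28B is itself a feature of aggressive neuroblastoma.

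Promoter windows of 300 bases, from 250 bases before to 50 after a transcription start, were taken from RefSeq (GRCh38.p14). For the members, 10 windows of 8 of the 9 genes were examined. MYC was left out of this step, so its promoter was not searched for the motifs below. The windows of MYCN, MYCL, MXD1 and LIN28B (its second window), which fell together in the SK-N-SH CRISPRi cells, and of MXD4, the member called in the siRNA experiment, are shown 5′ to 3′ in the direction of transcription. Capitals mark an E-box (CACGTG, which reads the same on both strands) or the letters of an E2F site (TTTGGCGC or TTTCGCGC, on either strand).
MYCN promoter window, chr2:15940300-15940599, plus strand: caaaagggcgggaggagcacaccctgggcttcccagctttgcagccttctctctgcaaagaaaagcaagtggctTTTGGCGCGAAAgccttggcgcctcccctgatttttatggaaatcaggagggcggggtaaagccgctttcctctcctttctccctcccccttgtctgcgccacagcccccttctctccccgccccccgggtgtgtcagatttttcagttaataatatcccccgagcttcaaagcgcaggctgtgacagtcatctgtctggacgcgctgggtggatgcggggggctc
MYCL promoter window, chr1:39901868-39902167, minus strand: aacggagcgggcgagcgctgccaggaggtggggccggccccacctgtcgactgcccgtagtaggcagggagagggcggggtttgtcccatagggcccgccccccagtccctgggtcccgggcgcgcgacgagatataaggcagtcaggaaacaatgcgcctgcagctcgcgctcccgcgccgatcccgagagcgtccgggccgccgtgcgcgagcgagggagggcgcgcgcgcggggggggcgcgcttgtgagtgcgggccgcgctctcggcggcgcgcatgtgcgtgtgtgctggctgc
MXD1 promoter window, chr2:69914859-69915158, plus strand: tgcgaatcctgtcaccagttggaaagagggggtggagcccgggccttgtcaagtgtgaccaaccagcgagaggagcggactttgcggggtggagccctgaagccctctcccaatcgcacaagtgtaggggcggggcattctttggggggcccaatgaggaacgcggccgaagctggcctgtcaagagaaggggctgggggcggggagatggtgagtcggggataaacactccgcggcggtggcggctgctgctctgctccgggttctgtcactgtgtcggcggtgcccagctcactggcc
LIN28B promoter window, chr6:104956857-104957156, plus strand: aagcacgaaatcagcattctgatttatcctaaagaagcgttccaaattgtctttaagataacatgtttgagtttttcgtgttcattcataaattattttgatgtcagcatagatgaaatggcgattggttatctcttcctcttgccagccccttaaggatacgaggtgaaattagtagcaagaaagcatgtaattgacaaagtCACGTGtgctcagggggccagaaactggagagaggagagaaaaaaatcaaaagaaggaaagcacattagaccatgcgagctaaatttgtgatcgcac
MXD4 promoter window, chr4:2262060-2262359, minus strand: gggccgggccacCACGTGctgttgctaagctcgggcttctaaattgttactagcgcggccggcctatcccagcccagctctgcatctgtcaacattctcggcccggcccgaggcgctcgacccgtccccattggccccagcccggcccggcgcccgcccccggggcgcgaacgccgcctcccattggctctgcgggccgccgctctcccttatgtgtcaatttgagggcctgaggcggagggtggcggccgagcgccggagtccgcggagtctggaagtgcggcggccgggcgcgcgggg
The E-box letters occur in 3 of the 10 windows. They start at position -238 in MXD4, at -193 in MNT and at -47 in the second LIN28B window, and were found in 2548 of all 35116 windows (7.26%). The MYCN window holds 2 overlapping E2F motifs, starting at -176 and -172, one on each strand. Such letters occur in 403 of all windows (1.15%). The windows of MYCL, MXD1, MXD3 and MAX and the first window of LIN28B hold neither motif. A match describes letters in a window and is no evidence of binding, and its absence says nothing about binding elsewhere.

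In the GRCh38 coordinates of the siRNA count table, MYC (ENSG00000136997) spans chr8:127735434-127741434 on the plus strand, MYCN (ENSG00000134323) chr2:15940564-15947007 on the plus strand and MYCL (ENSG00000116990) chr1:39895426-39902256 on the minus strand. MAX (ENSG00000125952) spans chr14:65006174-65102695 and MNT (ENSG00000070444) chr17:2384060-2401118, both on the minus strand. Of the MXD genes, MXD1 (ENSG00000059728) lies at chr2:69897688-69942945 on the plus strand, MXD3 (ENSG00000213347) at chr5:177301461-177312757 and MXD4 (ENSG00000123933) at chr4:2247432-2262294, both on the minus strand. LIN28B (ENSG00000187772) spans chr6:104936616-105083332 on the plus strand. The bounds of MYC, MYCN, MYCL, MXD4 and MNT differ slightly between the 3 tables, which were counted with different annotations.

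The siRNA libraries held 71464698 to 90255175 counted reads, the SK-N-SH CRISPRi libraries 11690515 to 21628076 and the SK-N-AS libraries 29985858 to 104455853. Of the values between 1 and 19, 89.3% were even in the SK-N-AS counts, 38.5% in the SK-N-SH CRISPRi counts and 60% in the siRNA counts, and of those from 100 to under 1000 the even shares were 61.7%, 50.1% and 50.2%. In SK-N-AS both mates of many pairs may thus have been counted, in which case its read numbers overstate the fragments. FAM167A itself was lower in every knockdown library than in every control library. It averaged 65.2 ± 5.13 CPM (read counts scaled to a common library size) after DIORA1 siRNA and 188 ± 12.5 CPM after NTC siRNA (SD, n = 5 each). It averaged 3.22 ± 0.588 CPM with sgDIORA1 and 242 ± 12.7 CPM with sgGal4 in SK-N-SH (SD, n = 3 each), and 10.2 ± 0.739 and 95.1 ± 3.56 CPM in SK-N-AS (SD, n = 4 each). Adrenergic neuroblastoma markers (12 genes, among them PHOX2A, GATA2 and DBH, with 1 under 1 CPM in each group) summed to between 1130 and 4700 CPM. Endothelial and Schwann cell marker lists of 6 genes each summed to at most 4.8 CPM in any library, with FOXD3 at 0 throughout. The blood list was near 0 in SK-N-SH, while in SK-N-AS PTPRC, which encodes CD45, averaged 451 ± 14.1 CPM with sgDIORA1 and 542 ± 19.1 CPM with sgGal4 (SD, n = 4 each) and CD3E and HBB were at 0. PTPRC was called lower with sgDIORA1 (log2 fold change -0.27, edgeR adjusted p 5.9e-10), and its part in the results below was not tested.

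Set by level per kilobase of gene length in control cells, MYC was the highest of the 9 genes in all 3 control groups. It reached 30 ± 0.94 CPM per kb in NTC siRNA cells (SD, n = 5), 20.1 ± 1.31 in SK-N-SH sgGal4 cells (n = 3) and 34.9 ± 0.494 in SK-N-AS sgGal4 cells (n = 4). MXD4 and MAX came next in every group. MXD4 stood at 21 ± 0.309, 12.1 ± 0.584 and 16 ± 0.699 CPM per kb in those 3 groups, and MAX at 11.5 ± 0.41, 13.5 ± 0.166 and 19.2 ± 0.251 CPM per kb. MXD4 was thus above MAX in the siRNA control and below it in both sgGal4 groups, with no overlap between the libraries of the 2 genes. MNT followed in all 3 groups, at 4.6 ± 0.114, 4.96 ± 0.15 and 4.21 ± 0.154 CPM per kb. In SK-N-SH sgGal4 cells MNT overlapped with MXD3 (4.53 ± 0.845) and MXD1 (1.69 ± 0.124) overlapped with LIN28B (1.51 ± 0.21). In NTC siRNA cells LIN28B (2.81 ± 0.134) overlapped with MXD3 (2.61 ± 0.186). MYCN and MYCL were at the low end: MYCN stood at 1.94 ± 0.264 CPM per kb in NTC siRNA cells and 0.783 ± 0.148 in SK-N-SH sgGal4 cells, and MYCL at 0.448 ± 0.0616 and 0.314 ± 0.0329. Gene lengths were those of the siRNA table and were applied to all 3 tables.

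**Figure D1:**
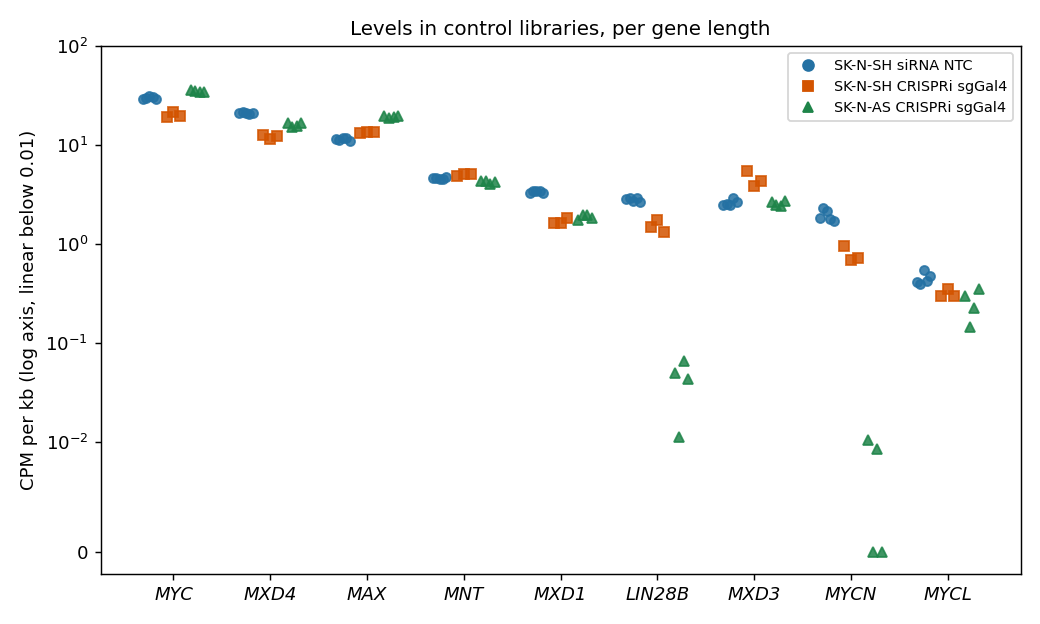
Level of each member in every control library, in CPM per kb of gene length on a log axis that is linear below 0.01; circles are SK-N-SH NTC siRNA, squares SK-N-SH sgGal4 and triangles SK-N-AS sgGal4 libraries. MYC is highest in each group, and LIN28B and MYCN lie far lower in SK-N-AS than in SK-N-SH.

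Of the summed level of the 3 MYC genes per kb, MYC made up 94.8 ± 0.84% in SK-N-SH sgGal4 cells (SD, n = 3), 99.3 ± 0.251% in SK-N-AS sgGal4 cells (n = 4) and 92.6 ± 0.69% in NTC siRNA cells (n = 5). After CRISPRi with sgDIORA1 in SK-N-SH that share was 97.5 ± 0.543% (n = 3), and the MYCN share was 1.01 ± 0.455% with sgDIORA1 and 3.73 ± 0.876% with sgGal4. The shares of MYC after DIORA1 siRNA (92.6 ± 0.668%) and with sgDIORA1 in SK-N-AS (99.2 ± 0.113%) lay within the spread of their controls.

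The 2 lines differed most in MYCN and LIN28B. MYCN had 2.48, 1.78 and 1.85 CPM in the SK-N-SH sgGal4 libraries, against 0.0271, 0, 0.0243 and 0 CPM in the SK-N-AS sgGal4 libraries. The SK-N-SH libraries were all higher. MYCN was thus near absent in SK-N-AS, where the 4 sgGal4 libraries together held 4 reads, against 99 reads in the 3 SK-N-SH libraries. With the SK-N-AS reads halved for double counting the ratio was 123 with a 95% exact interval of 33 to 1030, which covers counting error only. LIN28B had 8.85, 10.4 and 7.94 CPM in the SK-N-SH libraries, against 0.298, 0.0666, 0.389 and 0.26 CPM in the SK-N-AS libraries, again without overlap. The ratio of LIN28B, likewise on halved reads, was 30.6 (21.8 to 44.3). MYC showed the opposite order: it averaged 60.2 ± 3.93 CPM in SK-N-SH and 105 ± 1.48 CPM in SK-N-AS (SD, n = 3 and 4; log2 difference -0.77 ± 0.0465 SE, edgeR adjusted p 6.44e-17).

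Between the sgGal4 controls 7 of the 9 members passed the test, 4 of them higher in SK-N-SH and 3 lower, where 80.1% of all 17729 genes tested passed, 40.9% higher and 39.2% lower, so that a pass says little about the family. MAX (-0.49) and MXD4 (-0.39) were lower in SK-N-SH, and MXD3 (0.84) and MNT (0.27) were higher. MYCN and LIN28B also passed as higher in SK-N-SH. Within SK-N-AS both missed the filter on low counts, and they were tested here only in the joint fit. MXD1 (-0.10, adjusted p 0.308) and MYCL (0.28, adjusted p 0.324) did not pass. The tables of the 2 lines were counted and deposited separately, and line, sequencing run and counting cannot be told apart. Some orders rest on which SK-N-SH control is used: with NTC siRNA cells in place of sgGal4 cells the log2 difference was 0.75 for MXD1, -0.07 for MXD3 and 0.29 for MXD4, each of opposite sign. With that control MNT was at 0.03 and no longer passed (adjusted p 0.529), while MYCL passed at 0.68 (adjusted p 0.00212). MYC, MAX, MYCN and LIN28B kept their direction, with MYC at -0.32 in place of -0.77.

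In the SK-N-SH CRISPRi cells 5 of the 9 members fell with sgDIORA1 and none rose. They were all 3 MYC genes, the antagonist MXD1 and LIN28B, and each was lower in every sgDIORA1 library than in every sgGal4 library. The share of all genes that separate in this way was not counted, so whether separation is more frequent among the members is unknown. Of the 40 MYC-activated genes described below, 30 were lower and 3 higher without overlap. Of the 14 genes that MYC or MYCN are reported to lower, 6 were lower and 8 higher without overlap. Both lists were chosen by name and do not stand for all genes. In this experiment 55.8% of all 15391 genes tested passed (edgeR quasi-likelihood test, Benjamini-Hochberg adjusted p under 0.05), 27.7% higher and 28% lower, so 5 of 9 is near the share of all genes that passed in either direction and above the share that fell. The median of the members' log2 fold changes was -0.79, against -0.00676 over all genes.

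MYC, the main MYC gene of these cells, had 29.2, 29.4 and 29.9 CPM with sgDIORA1, against 57, 64.6 and 59.2 CPM with sgGal4. Its level was about halved, with a log2 fold change of -1.03 ± 0.061 (SE; edgeR adjusted p 2.45e-17). MYCN had 0.327, 0.337 and 0.128 CPM with sgDIORA1, against 2.48, 1.78 and 1.85 CPM with sgGal4. These are few reads, 12 with sgDIORA1 and 99 with sgGal4, and the ratio was 0.132 with a 95% exact interval of 0.0661 to 0.242 for counting error. The fitted log2 fold change of MYCN was -2.89 ± 0.377 (adjusted p 2.75e-08). MYCL, the least abundant MYC gene, had 0.719, 0.81 and 0.703 CPM with sgDIORA1, against 1.49, 1.78 and 1.5 CPM with sgGal4. It rested on 34 and 79 reads and fell by 1.08 on the log2 scale (SE 0.302, adjusted p 0.00246).

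Among the antagonists, MXD1 had 6.67, 6.01 and 6 CPM with sgDIORA1, against 10.3, 10.3 and 11.6 CPM with sgGal4. It fell by 0.80 on the log2 scale (SE 0.119, adjusted p 3.65e-07). The other antagonists did not pass: MXD3 was at 20.4 ± 2.9 and 23.4 ± 4.36 CPM, MXD4 at 81.1 ± 3.58 and 85.1 ± 4.12 CPM, and MNT at 45 ± 1.87 and 43.3 ± 1.31 CPM with sgDIORA1 and sgGal4 (SD, n = 3 each). Their 95% intervals for the log2 fold change ran from -0.422 to 0.0621 for MXD3, from -0.166 to 0.0263 for MXD4 and from -0.0639 to 0.165 for MNT. MAX, the shared partner, averaged 60.1 ± 2.63 CPM with sgDIORA1 and 59.9 ± 0.734 CPM with sgGal4, a log2 fold change of 0.00 under the usual scaling (interval -0.0975 to 0.107) that was -0.13 without it. LIN28B had 4.91, 5.8 and 4.85 CPM with sgDIORA1, against 8.85, 10.4 and 7.94 CPM with sgGal4. It fell by 0.79 on the log2 scale (SE 0.135, adjusted p 4.71e-06).

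All 5 falls kept their direction and stayed past the threshold under every alternative run, but the count rests in part on scaling. Without scaling beyond the library total the median of all genes moved to -0.136 and 8 members were called, with MAX, MXD3 and MXD4 added. Leaving out sgDIORA1 replicate 1 added MXD3 (-0.30, adjusted p 0.0318), and leaving out sgGal4 replicate 2 added MXD4 (-0.11, adjusted p 0.0474). Beside these changes the adrenergic marker sum was 1130 to 1200 CPM with sgDIORA1 and 2780 to 2960 CPM with sgGal4. Of its 11 tested genes 10 fell, where 28% of all genes fell, led by GATA2 at -2.08 and PHOX2A at -1.78, while TBX2 rose by 0.59. The epithelial list moved the other way, at 160 to 168 CPM with sgDIORA1 and 82.2 to 89.2 CPM with sgGal4, through KRT18 and KRT8, while CLDN4 fell by 1.03 on the log2 scale (adjusted p 0.000727) and CDH1, EPCAM and KRT19 were under 1 CPM. Mitochondrial genes took 5.72 to 6.56% of the reads with sgDIORA1 and 4.66 to 5.49% with sgGal4, without overlap. The part of these markers and of the mitochondrial share in the MYC results was not tested. In bulk RNA, fewer cells of a type and less RNA per cell cannot be told apart.

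**Figure D2:**
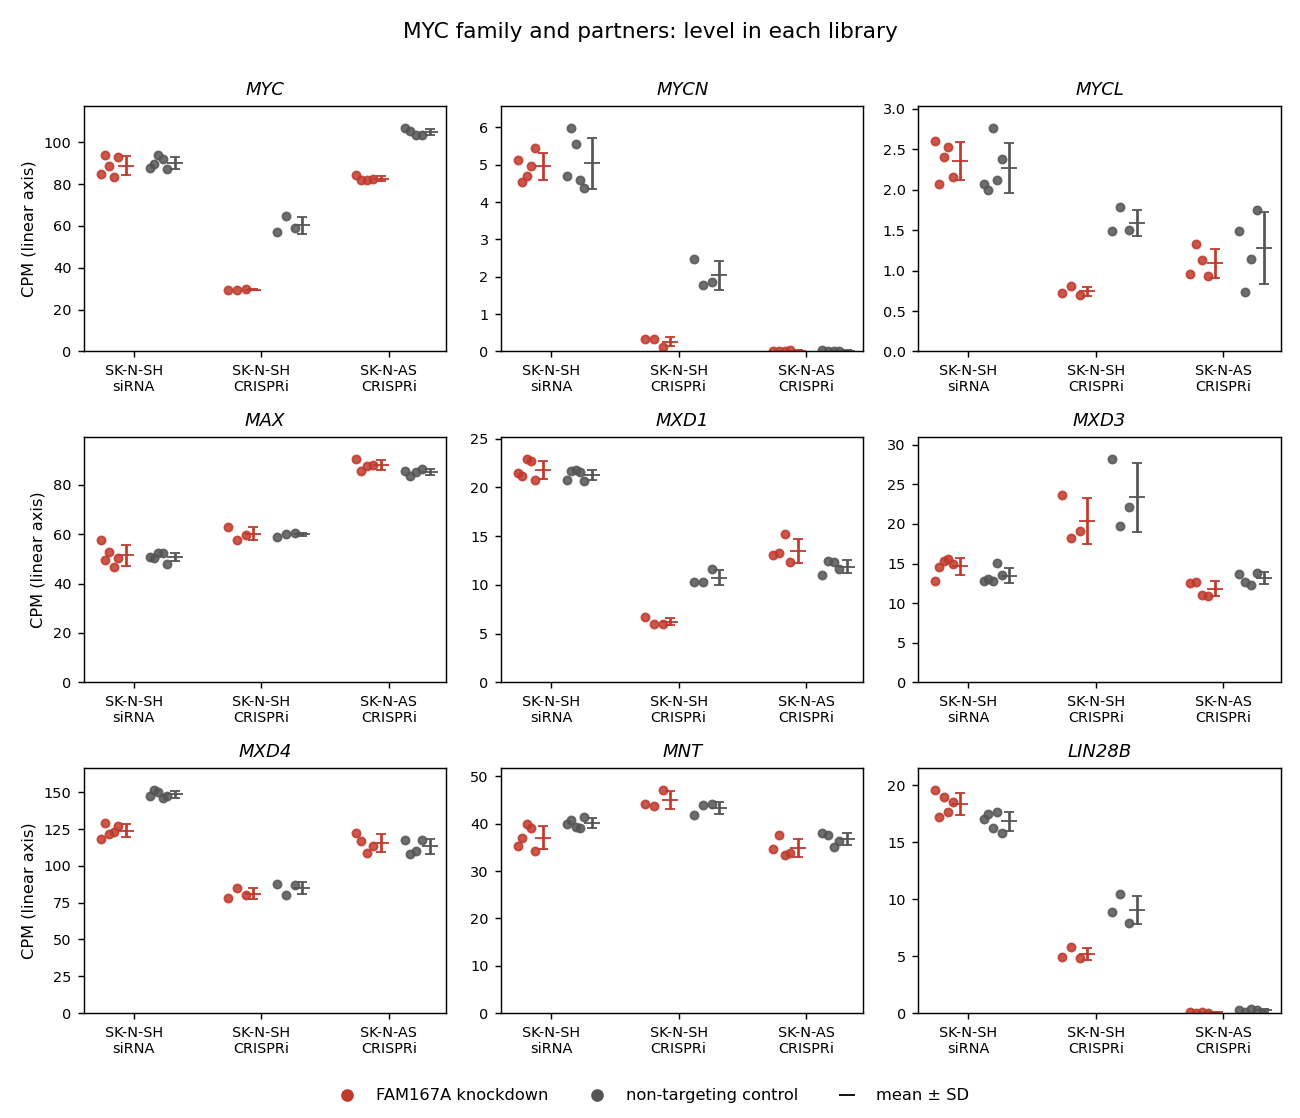
CPM of each of the 9 members in every library on linear axes that start at 0, with the mean and SD beside the points; knockdown libraries are red and stand left of their controls in grey. MYC, MYCN, MYCL, MXD1 and LIN28B separate fully in SK-N-SH CRISPRi, MYC separates in SK-N-AS, and MXD4 separates in SK-N-SH siRNA.

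In SK-N-AS, MYC fell with sgDIORA1 as well, and by less. It had 84.3, 82, 81.8 and 82.5 CPM with sgDIORA1, against 107, 105, 104 and 104 CPM with sgGal4. The groups did not overlap, and the log2 fold change was -0.34 ± 0.0304 (SE; edgeR adjusted p 2.86e-11). MXD1 was called higher. It had 13.1, 13.3, 15.2 and 12.4 CPM with sgDIORA1, against 11, 12.4, 12.3 and 11.6 CPM with sgGal4, so the groups overlapped. Its log2 fold change was 0.19 ± 0.0672 (adjusted p 0.0288), and the call was lost without sgDIORA1 replicate 3 (adjusted p 0.152), sgGal4 replicate 1 (0.0963) or sgGal4 replicate 4 (0.0686). These were 2 of the 7 members tested, where 30.6% of all 19277 genes passed, 15.2% higher and 15.5% lower.

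The remaining 5 tested members did not pass in SK-N-AS. MAX was at 87.9 ± 2.03 CPM with sgDIORA1 and 85.2 ± 1.11 CPM with sgGal4 (SD, n = 4 each). MXD3 (11.8 ± 0.95 and 13.1 ± 0.754 CPM, adjusted p 0.0917) was the nearest to the threshold. MXD4 (115 ± 5.97 and 113 ± 4.94 CPM), MNT (34.9 ± 1.87 and 36.8 ± 1.35 CPM) and MYCL (1.09 ± 0.18 and 1.28 ± 0.443 CPM) had overlapping groups. MYCN and LIN28B fell below the filter on low counts and were not tested. MYCN had 4 reads with sgDIORA1 and 4 with sgGal4 over the 4 libraries of each, under the floor of 3 reads in every library (0.0288 to 0.1 CPM), and no fold is given. LIN28B had 0.0986, 0.0384, 0.109 and 0.0347 CPM with sgDIORA1, against 0.298, 0.0666, 0.389 and 0.26 CPM with sgGal4, in 20 and 72 reads. On halved reads the ratio was 0.231 (95% exact interval 0.102 to 0.475, counting error only), the libraries overlapped through sgGal4 replicate 2, and without the filter the log2 fold change was -1.94 (adjusted p 0.00837). It was also tested and called lower when any one of 5 libraries was left out (-2.21 to -1.70, adjusted p at most 0.0271). This is a difference at the edge of detection. The adrenergic marker sum was 2040 to 2150 CPM with sgDIORA1 and 2440 to 2550 CPM with sgGal4 in SK-N-AS, and its part in these results was not tested. Of its 12 genes 7 fell there, where 15.5% of all genes fell, led by CHGB at -1.86, and TBX2 rose by 0.21.

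After siRNA in SK-N-SH, MXD4 was the member that changed, 1 of 9 where 9.53% of all 21018 genes passed, 2.55% higher and 6.98% lower. MXD4 had 118, 129, 122, 123 and 127 CPM after DIORA1 siRNA, against 148, 152, 150, 146 and 148 CPM after NTC siRNA. Every DIORA1 siRNA library was below every NTC library, with a log2 fold change of -0.26 ± 0.0369 (SE; edgeR adjusted p 2.52e-05), a level 1.2-fold lower. Without DIORA1 siRNA replicate 4 and NTC replicate 5, which had the highest scaling factors of their groups (1.056 and 0.9994), the value was -0.26 (adjusted p 4.05e-05).

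MYC itself had 84.8, 94.1, 88.8, 83.6 and 93 CPM after DIORA1 siRNA, against 87.7, 89.6, 94, 92 and 87.4 CPM after NTC siRNA. The groups overlapped, and the 95% interval of the log2 fold change ran from -0.103 to 0.0613, which does not reach the fall of either CRISPRi experiment. MYCN averaged 4.96 ± 0.354 CPM after DIORA1 siRNA and 5.04 ± 0.686 CPM after NTC siRNA (SD, n = 5 each; interval -0.218 to 0.167), and MYCL 2.35 ± 0.232 and 2.27 ± 0.312 CPM (interval -0.2 to 0.307). MAX (51.4 ± 4.11 and 50.8 ± 1.82 CPM) and MXD1 (21.8 ± 0.935 and 21.3 ± 0.531 CPM) overlapped between groups too. LIN28B was at 18.4 ± 0.974 CPM after DIORA1 siRNA and 16.8 ± 0.807 CPM after NTC siRNA (log2 0.13, adjusted p 0.187). It passed only without scaling (0.18, adjusted p 0.0441). MXD3 (log2 0.12, adjusted p 0.295) and MNT (-0.12, adjusted p 0.162) did not pass. The adrenergic marker sum was 4180 to 4700 CPM after DIORA1 siRNA and 4020 to 4500 CPM after NTC siRNA. Of its 11 tested genes 2 were called higher, where 2.55% of all genes were, among them ISL1 (0.13, lost under 9 alternatives).

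**Figure D3:**
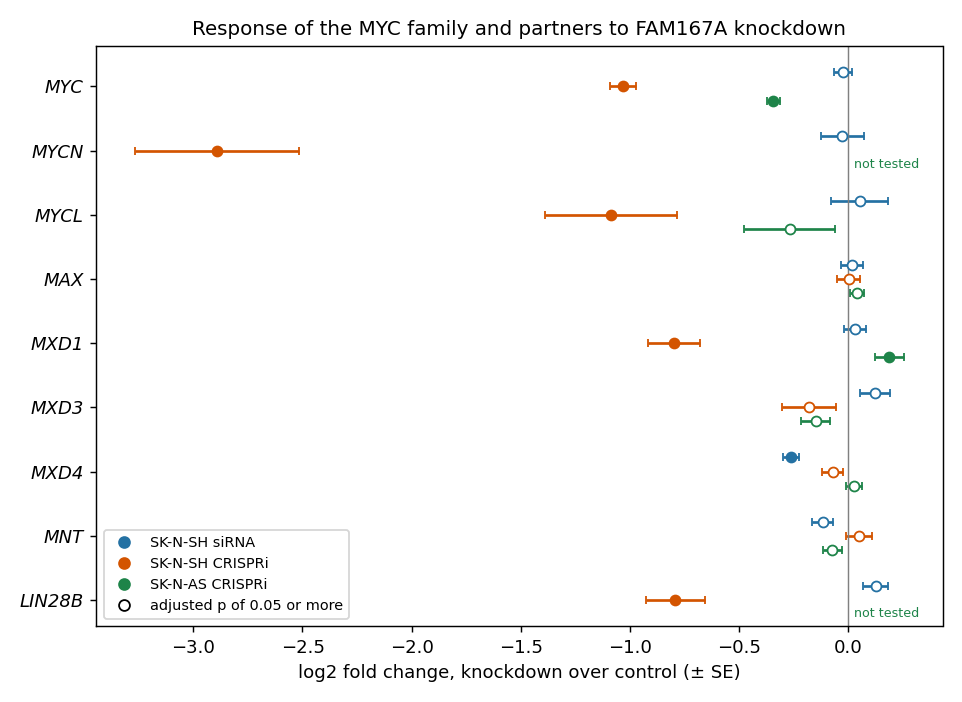
Log2 fold change of each member, knockdown over control, with its standard error, in the siRNA experiment and both CRISPRi experiments; filled points passed the test over all genes and open points did not. The SK-N-SH CRISPRi values of MYC, MYCN, MYCL, MXD1 and LIN28B lie between -2.89 and -0.79, while the siRNA values of the same genes lie near 0.

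The difference between responses was tested directly as an interaction. Between CRISPRi and siRNA in SK-N-SH, 6 of the 9 members differed, where 31.4% of all 23287 genes did. The CRISPRi response was lower for MYC (difference -1.02 ± 0.0775 SE, edgeR adjusted p 5.74e-13), MYCN (-2.90 ± 0.362, adjusted p 4.86e-08), MYCL (-1.16 ± 0.309, adjusted p 0.00337), MXD1 (-0.84 ± 0.118, adjusted p 4.72e-07) and LIN28B (-0.93 ± 0.141, adjusted p 1.7e-06). It was higher for MXD4 (0.18 ± 0.0647, adjusted p 0.0294), a difference of 0.01 without scaling that also missed the threshold with no filter on low counts (adjusted p 0.106), without sgGal4 replicate 2 (0.138) and without sgDIORA1 replicate 2 (0.0912). MXD3 (-0.32 ± 0.133, adjusted p 0.0672) missed the threshold and passed under 6 alternatives, while MAX (-0.02, adjusted p 0.924) and MNT (0.16, adjusted p 0.159) did not pass. Method, library preparation, run, and the depth of the FAM167A loss cannot be told apart in this comparison.

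Between the lines under CRISPRi, 3 of 9 members differed, where 30.7% of all 19862 genes did. MYC fell more in SK-N-SH than in SK-N-AS (difference -0.68 ± 0.0655 SE, edgeR adjusted p 6.36e-12). MXD1, which fell in SK-N-SH and was called higher in SK-N-AS, differed by -0.98 ± 0.141 (adjusted p 1.92e-07). LIN28B missed the filter on low counts within SK-N-AS and was tested here only in the joint fit with SK-N-SH, where it was higher. It differed the other way, by 1.25 ± 0.447 (adjusted p 0.0285), on the 20 and 72 SK-N-AS reads described above. That call was lost without scaling (adjusted p 0.0512) and without any one of 5 libraries, namely SK-N-SH sgGal4 replicate 3 (0.0716), SK-N-SH sgDIORA1 replicate 2 (0.0682), SK-N-AS sgDIORA1 replicates 2 (0.117) and 4 (0.0694) and SK-N-AS sgGal4 replicate 3 (0.114). MYCN (-2.72 ± 1.38, adjusted p 0.142) and MYCL (-0.81 ± 0.406, adjusted p 0.135) had wide errors and did not pass, which does not show that the lines respond alike. MAX (-0.03) and MXD4 (-0.08) did not pass here and passed without scaling, at -0.16 and -0.22 where the median of all genes was -0.148. FAM167A itself fell further in SK-N-SH than in SK-N-AS (difference -3.00 ± 0.115 SE, edgeR adjusted p 8.92e-26). Line, sequencing run, counting and the depth of the FAM167A loss cannot be told apart in this comparison.

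**Figure D4:**
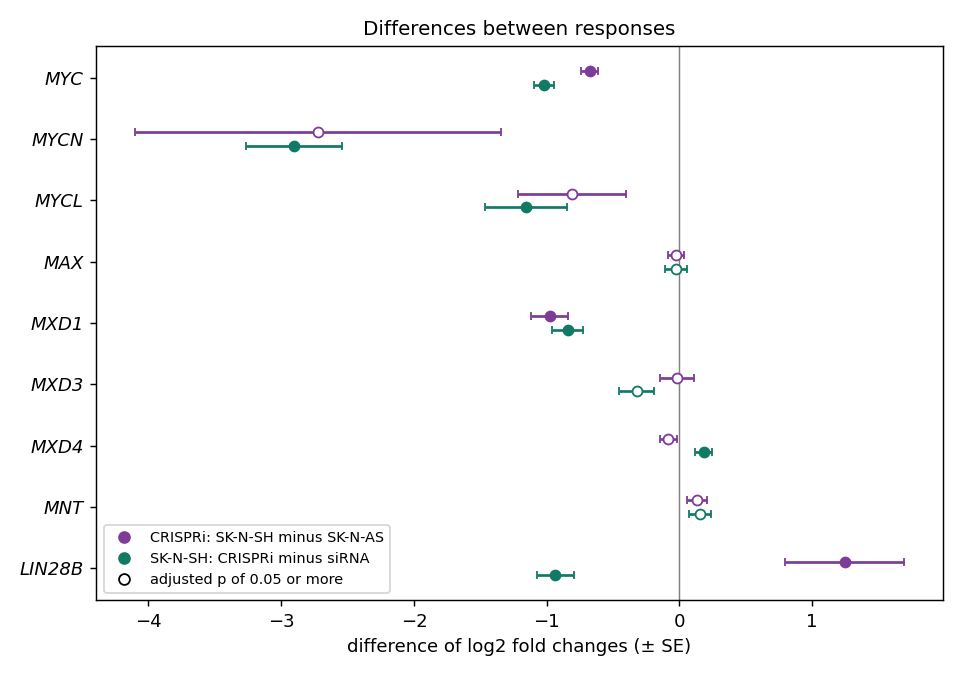
Difference of log2 fold changes for each member with its standard error, for SK-N-SH minus SK-N-AS under CRISPRi and for CRISPRi minus siRNA in SK-N-SH; filled points passed the test over all genes. MYC and MXD1 lie below 0 in both, LIN28B lies at 1.25 in one and -0.93 in the other.

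Genes beyond the 9 members that act with the family were read from the same fits. Of the other MAX-network genes, MXI1, a further MXD family antagonist, fell in SK-N-SH CRISPRi (log2 -0.31, adjusted p 5.32e-05) and was at -0.11 in SK-N-AS (adjusted p 0.0241, lost without any one of 4 libraries, at up to 0.163). MGA, a large MAX-binding repressor, was at -0.21 in SK-N-SH CRISPRi (adjusted p 0.00621, and 0.0596 without sgGal4 replicate 2). MLXIP, a glucose-sensing relative, was at 0.12 (adjusted p 0.0328) and at -0.01 without scaling. Of 4 tested genes 1 rose and 2 fell in SK-N-SH CRISPRi, where 55.8% of all genes were called. In SK-N-AS 0 rose and 1 fell of 4 tested, where 30.6% of all genes were called. After siRNA 0 of 5 tested genes passed by edgeR, where 9.53% of all genes did. MGA and MXI1 had unadjusted p values of 0.0106 and 0.0271 there.

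Of 15 cofactors, 5 fell and 3 rose in SK-N-SH CRISPRi, and 6 fell and 0 rose in SK-N-AS. After siRNA 0 passed, where 9.53% of all genes did. The calls in SK-N-SH CRISPRi were near the share of all genes called there (55.8%), and those in SK-N-AS stand beside 30.6% of all genes, of which 15.5% fell. WDR5, a chromatin adaptor that anchors MYC, fell by 0.34 on the log2 scale in SK-N-SH CRISPRi (adjusted p 1.45e-07). RUVBL1 and RUVBL2, ATPases of MYC coactivator complexes, fell in both lines, by 0.19 and 0.27 in SK-N-SH and by 0.12 each in SK-N-AS. HDAC2 fell by 0.20 and TRRAP, a histone acetyltransferase scaffold, by 0.16 in SK-N-AS. In SK-N-SH CRISPRi HDAC2 was called lower too (log2 -0.14, edgeR adjusted p 0.0105), with overlapping groups. HDAC1 rose by 0.28 in SK-N-SH CRISPRi, and the rise of SIN3B (0.13) there was about the size of the shift that scaling makes. Of 12 genes that set MYC protein turnover, 2 fell and 2 rose in SK-N-SH CRISPRi, 5 fell and 1 rose in SK-N-AS, and 0 passed after siRNA, beside the same 55.8% and 30.6% of all genes and 9.53% after siRNA. SKP2, a ubiquitin ligase subunit that both degrades and activates MYC, averaged 50.4 ± 0.373 CPM with sgDIORA1 and 72.1 ± 1.56 CPM with sgGal4 in SK-N-SH (SD, n = 3 each), and 149 ± 2.61 and 168 ± 4.04 CPM in SK-N-AS (SD, n = 4 each). PPP2R5A, a phosphatase subunit, rose by 0.54 and TRIM32, a ubiquitin ligase, by 0.47 in SK-N-SH. FBXL14 (-0.21) and GSK3B (0.09), both of which mark MYC proteins for degradation, were called in SK-N-AS and lost the call without sgDIORA1 replicate 3 (adjusted p 0.0785) and with no filter on low counts (0.0814).

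Of 40 textbook MYC-activated genes, mostly of ribosome synthesis, 31 fell and 3 rose in SK-N-SH CRISPRi, 15 fell and 3 rose in SK-N-AS, and 3 fell and 0 rose after siRNA. Their median log2 fold changes were -0.21, -0.07 and 0.00 in that order, beside medians of -0.00676, -0.0024 and 0.00851 over all genes. Over all genes 28% fell and 27.7% rose in SK-N-SH CRISPRi, 15.5% fell and 15.2% rose in SK-N-AS, and 6.98% fell after siRNA, so the siRNA count was near the share of all genes. The falls were small. FBL, the nucleolar RNA methyltransferase, averaged 90.6 ± 3.12 CPM with sgDIORA1 and 124 ± 1.54 CPM with sgGal4 in SK-N-SH (SD, n = 3 each), and 116 ± 3.68 and 134 ± 3.36 CPM in SK-N-AS (SD, n = 4 each). NOLC1, a nucleolar chaperone, fell by 0.45 and PTMA, which encodes prothymosin alpha, by 0.37 on the log2 scale in SK-N-SH CRISPRi (adjusted p 1.25e-09 and 1.08e-09). TERT, the telomerase catalytic subunit, fell most of those named, by 0.91 in SK-N-SH CRISPRi (7.76 ± 0.26 CPM with sgDIORA1 and 14.6 ± 1.02 CPM with sgGal4) and by 0.40 in SK-N-AS. The rises were of LDHA, TFB2M and TFRC in SK-N-SH (0.18, 0.16 and 0.11) and of TFRC, EIF4A1 and LDHA in SK-N-AS (0.28, 0.34 and 0.11). Whether genes that overlap EIF4A1, such as the small nucleolar RNA genes it hosts, affect its counts was not tested. TFRC, the transferrin receptor, fell after siRNA, at 232 ± 8.81 CPM after DIORA1 siRNA and 291 ± 10.4 CPM after NTC siRNA (SD, n = 5 each; log2 -0.33, adjusted p 4.26e-06). The other siRNA calls, EIF4E (-0.18) and SRM (-0.18), were lost under 9 and 8 of 17 alternatives, at adjusted p up to 0.0853 and 0.115.

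Genes that MYC or MYCN are reported to lower went in both directions. Of 14 such genes, 8 rose and 6 fell in SK-N-SH CRISPRi, 8 rose and 3 fell in SK-N-AS, and 0 rose and 6 fell after siRNA, with medians of 0.45, 0.12 and -0.12. The shares of all genes called were 55.8%, 30.6% and 9.53% in that order. CDKN1A, the cyclin-dependent kinase inhibitor p21, averaged 603 ± 15.9 CPM with sgDIORA1 and 388 ± 20.3 CPM with sgGal4 in SK-N-SH, and 32.3 ± 1.11 and 17.1 ± 0.787 CPM in SK-N-AS. TGM2, tissue transglutaminase, rose by 0.87 on the log2 scale in both lines under CRISPRi and fell by 0.25 after siRNA. DKK3, a secreted glycoprotein, rose by 0.95 in SK-N-SH CRISPRi, and CLU (0.49) and NDRG1 (0.45) rose in SK-N-AS. After siRNA CDKN1A (log2 -0.20, edgeR adjusted p 0.0055) and DKK3 (-0.23, adjusted p 0.00355) were lower. NDRG2 fell by 1.66 and CDKN1C, the inhibitor p57, by 1.24 in SK-N-SH CRISPRi (adjusted p 2.1e-12 and 7.55e-06). CDKN2B, the inhibitor p15, fell by 1.00 after siRNA, at 2 ± 0.38 CPM after DIORA1 siRNA and 3.99 ± 0.202 CPM after NTC siRNA (SD, n = 5 each), and NDRG1 and NDRG4 fell by 0.48 and 0.41.

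Around LIN28B, 13 genes of the LIN28 and let-7 axis were tested after siRNA, 12 in SK-N-SH CRISPRi and 13 in SK-N-AS. LIN28A, its paralogue, had no read in any SK-N-SH CRISPRi library. In SK-N-SH CRISPRi 6 rose and 4 fell, in SK-N-AS 1 rose and 3 fell, and after siRNA 0 rose and 3 fell, with medians of 0.17, -0.02 and -0.03. Beside the 55.8%, 30.6% and 9.53% of all genes called, the SK-N-AS count was near the share of all genes. HMGA2, a chromatin protein and classical let-7 target, averaged 346 ± 3.76 CPM with sgDIORA1 and 193 ± 9.57 CPM with sgGal4 in SK-N-SH (SD, n = 3 each), and 38.9 ± 0.921 and 24.9 ± 0.985 CPM in SK-N-AS (SD, n = 4 each). After siRNA it went the other way, at 168 ± 7.79 CPM after DIORA1 siRNA and 215 ± 14.4 CPM after NTC siRNA (SD, n = 5 each; log2 -0.36, adjusted p 7.97e-06). IGF2BP2, an RNA-binding let-7 target, rose by 0.73 in SK-N-SH CRISPRi and fell by 0.61 after siRNA. ARID3B, another let-7 target, fell by 0.81 in SK-N-SH CRISPRi and by 0.48 in SK-N-AS. Mature let-7 was not measured.

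Neighbours of MYCN and MYC were mostly without a call. DDX1, which lies beside MYCN and is often co-amplified with it, was at 136 ± 4.41 CPM with sgDIORA1 and 162 ± 15.3 CPM with sgGal4 in SK-N-SH (log2 -0.26, adjusted p 9.16e-05). It was the 1 call among 4 tested there, where 55.8% of all genes were called and 28% fell, so the call says little about the neighbours. PVT1, downstream of MYC, was at -0.02 there and at -0.04 in SK-N-AS and did not pass. MYCNOS, transcribed antisense to MYCN, had 2 reads with sgDIORA1 and 2 with sgGal4 over the SK-N-SH CRISPRi libraries and 24 to 38 reads in each siRNA library. Whether strand was used in counting is unknown here, so reads of MYCN and MYCNOS cannot be told apart.

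**Figure D5:**
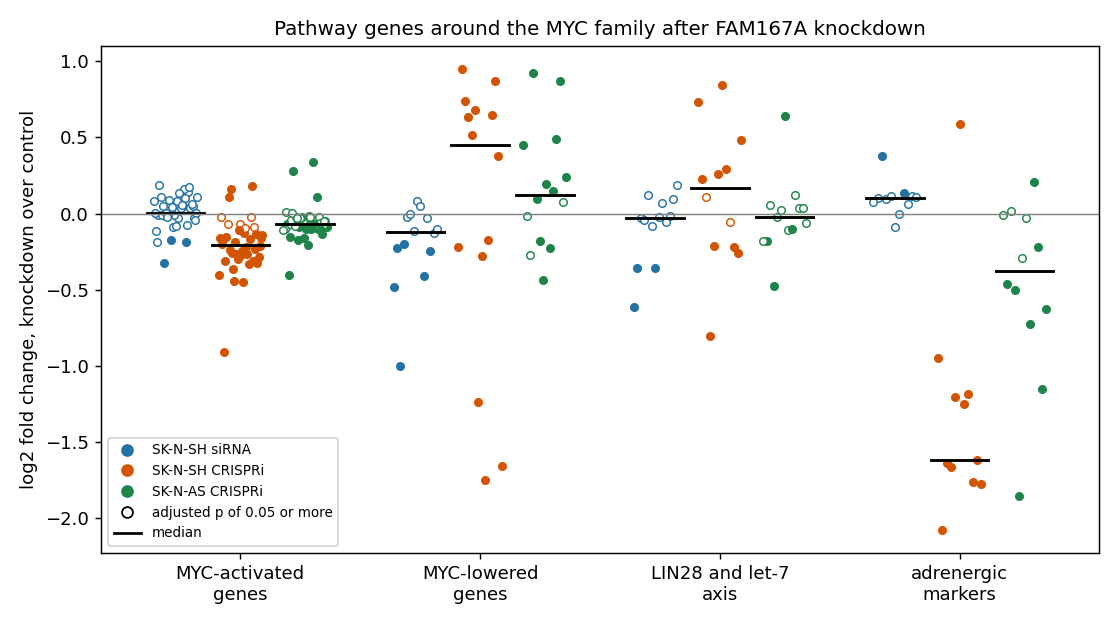
Log2 fold change, knockdown over control, of each tested gene of 4 lists in the 3 knockdown experiments; filled points passed the test over all genes, and black bars are medians. Most MYC-activated genes lie below 0 in SK-N-SH CRISPRi with a median of -0.21, and genes lowered by MYC spread to both sides. In SK-N-SH CRISPRi 10 of 11 adrenergic markers fell, beside 28% of all genes.

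Across the 24 libraries, with log2 CPM centred within each of the 3 experiments, MYC moved with MYCL (Pearson r = 0.717) and MXD1 (r = 0.727), and MYCL with MXD1 (r = 0.596). These values share libraries and largely describe the gap between the SK-N-SH CRISPRi groups. MYCN and LIN28B, which were not tested in SK-N-AS, were left out of the correlations. MAX was not aligned with MYC (r = -0.0847), and MXD4 and MNT had r = 0.398. Among 11933 genes at 1 CPM or more in each experiment, those most like MYC were CHRNA3 (r = 0.989), a nicotinic receptor subunit, CD63-AS1 (r = 0.987) and FAM163A (r = 0.985). Those most like MXD1 were CLMN (r = 0.949), SEMA4D (r = 0.945) and NPTXR (r = 0.945), and those most like MXD4 were IRAK1 (r = 0.91), NCS1 (r = 0.9) and NDRG4 (r = 0.88). MYCL was closest to DISP2 (r = 0.849), SYT3 (r = 0.846) and ASRGL1 (r = 0.838). Likeness was lower for MXD3, with MFSD3 (r = 0.805), TRMT61A (r = 0.79) and MIDN (r = 0.788). It was lower still for MNT, with ZFYVE27 (r = 0.777), BRD3OS (r = 0.76) and KLF16 (r = 0.72), and for MAX, with AAMDC (r = 0.734), UQCRB (r = 0.724) and ATP5PD (r = 0.719). CD63-AS1 and BRD3OS are antisense genes, whose reads may include those of their partners.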

How the data were processed

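Whole-number read counts per gene were deposited by the authors in 3 tables, 1 for each experiment. Per the submitters' processing notes, the tools included bcl2fastq 2.20, CASAVA, FastQC 0.11.8, STAR 2.6.1d and featureCounts 1.5.1 with the GRCh38 build. The annotation release, the strand setting and the treatment of read pairs are unknown here. Libraries of the CRISPRi experiments were made with a stranded mRNA kit, per the labels' protocols.

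The counts were fitted over each whole table with edgeR 4.0.16 in R 4.3.3 (TMM scaling, filterByExpr with a minimum count of 10 and a minimum total of 15, robust glmQLFit and glmQLFTest), without a replicate block, and adjusted p-values (Benjamini-Hochberg) cover every gene in the fit. Responses were compared as interactions over gene IDs shared by 2 tables. CPM used TMM-scaled library sizes. Likeness used the log2 of CPM plus 0.5, which damps differences of genes at low CPM. DESeq2 1.42.0 and other scalings and filters served as alternatives. Standard errors of log2 fold changes were worked back from the fold change and the F statistic of the test. Intervals are at 95%. Those of fold changes use the normal distribution and are narrower than the test itself implies. The fits were tested on simulated data. The 9 members, the gene lists, the tests and the naming rule were chosen with earlier results of these data known. Named are all members, and up to 4 called genes of each other list in each knockdown experiment by smallest adjusted p (the 2 smallest where none passed). The rule also names the 3 genes most like each member that was tested in all 3 experiments. Genes named beyond this rule, such as those behind small counts, were chosen after their values were seen. Some markers that the rule names are given only as sums, and some genes that it names are not reported here.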

Additional observations from a re-analysis of the deposited data

Results flagged for a closer look

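Differences between responses were flagged where the test of the difference itself passed. For CRISPRi in SK-N-SH minus SK-N-AS, these were MYC (-0.68 on the log2 scale), MXD1 (-0.98) and LIN28B (1.25). MYC fell in both lines and fell further in SK-N-SH, and MXD1 went in opposite directions. LIN28B was near the limit of detection in SK-N-AS and was not tested within that line alone. For CRISPRi minus siRNA in SK-N-SH they were MYC (-1.02), MYCN (-2.90), MYCL (-1.16), MXD1 (-0.84), MXD4 (0.18) and LIN28B (-0.93). MYC, MYCN, MYCL, MXD1 and LIN28B had no call after siRNA, and MXD4 had its call there. Their causes were not tested. In 36 sets of 4 or 5 libraries, 1 for each member in each group of that size, 0 libraries stood far from the others by Dixon's test at the 95% level, where chance flags about 1 in 20 sets.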

How the results depend on the processing

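The number of members called was unchanged or within 1.5 times under every alternative run except library-total scaling, which gave 2 members in place of 1 after siRNA and 8 in place of 5 in SK-N-SH CRISPRi, and, in SK-N-AS, leaving out 1 library. Leaving out each library in turn gave 1 to 1 member after siRNA, 5 to 6 in SK-N-SH CRISPRi, 1 to 3 in SK-N-AS, 2 to 3 for SK-N-SH minus SK-N-AS, 5 to 7 for CRISPRi minus siRNA and 7 to 7 between the sgGal4 controls. Among values called in the reported fit or under the alternative, signs turned for MAX (-0.125, adjusted p 0.0401) and MLXIP (-0.0132) in SK-N-SH CRISPRi without scaling, and for MXD1 (0.751), MXD3 (-0.0661) and MXD4 (0.293) with NTC siRNA in place of sgGal4 as the SK-N-SH control. Values with no call in either also crossed 0, such as MNT in SK-N-SH CRISPRi (-0.0788) and in CRISPRi minus siRNA (-0.0122) and MYC after siRNA (0.0281) without scaling, and MXD3 in SK-N-SH minus SK-N-AS (up to 0.104). The cause was not tested. Without scaling, the share of calls that were higher was 55.2% in place of 26.7% after siRNA, 30.4% in place of 49.7% in SK-N-SH CRISPRi, 26.9% in place of 52.1% for SK-N-SH minus SK-N-AS and 26.9% in place of 47.9% for CRISPRi minus siRNA. Replicate numbers did not pair the libraries (correlations of same-numbered deviations -0.22 to 0.0638). With the replicate block 1, 6 and 2 members were called in the 3 experiments, adding MXD3 in SK-N-SH CRISPRi (-0.196, adjusted p 0.0347). Halving the SK-N-AS counts, an alternative chosen after seeing the data, left 2, 3 and 7 members called in the 3 comparisons that use them. Depth limits MYCN, MYCL and LIN28B, which rest on few reads in one or both CRISPRi experiments.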
